A study of Rattus norvegicus with 12 samples.

Results

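The 40 protein-coding rat genes of Wnt signalling at the cell surface were examined in infarcted left ventricle: 19 Wnt ligands, 9 Frizzled receptors, the co-receptors Lrp5 and Lrp6, and 10 secreted inhibitors. They were chosen by name from the 34599 genes of the count table, as protein-coding genes whose symbol opens with Wnt, Fzd, Sfrp or Dkk and a digit, or is Frzb, Wif1, Lrp5 or Lrp6. Fzd10 also matched by name, but is listed as a pseudogene and was left out. Of the 40 genes, 25 had enough counts to be tested, among 15101 genes tested in all. RNA-seq measured gene expression in left ventricular tissue of 12 rats, taken 1 day after surgery. In MI rats the left anterior descending artery of the heart was tied off, which causes myocardial infarction. Sham rats had the same opening of the chest and the artery left untied. iCarP+/Light+ rats had the same ligation, an injection of the oxygen-producing green alga Chlorella, and an adhesive biodegradable photonic patch (iCarP) that lit the heart. Each group held 4 rats. All rats were males of the SD strain with no genetic change named. No sample analysed here had the patch, the alga or the light alone, so the contribution of each to a difference between iCarP+/Light+ and MI rats cannot be told apart.

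Wnt proteins are secreted, lipid-bearing signals that bind a Frizzled receptor on the receiving cell. Together with Lrp5 or Lrp6 they keep beta-catenin from being degraded, so that it enters the nucleus and acts with TCF/LEF factors on target genes; other Wnt signals run through Frizzled and the Ror receptors to cell polarity and calcium. Secreted Frizzled-related proteins and Wif1 bind Wnt proteins outside the cell, and Dickkopf proteins act on the Lrp co-receptors. In the adult heart the pathway is mostly quiet in muscle and is known for its part in fibroblasts, vessels and wound repair.

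Libraries held 14064414 to 17136958 counted reads, and 3 reads corresponded to 0.144 to 0.228 CPM (counts scaled to library size), a floor that covers counting error only. Library sizes were adjusted by TMM, a method that balances libraries on the bulk of their genes. Summed levels of 10 cardiomyocyte markers were 31400 to 34300 CPM in Sham rats, 1990 to 4630 CPM in MI rats and 2550 to 5350 CPM in iCarP+/Light+ rats, so heart muscle was present in every library and lower in both ligated groups. The 10 fibroblast markers ran from 8990 to 11100, 2830 to 3260 and 1450 to 3140 CPM, and the 9 endothelial markers in the table from 1840 to 2080, 906 to 1320 and 1130 to 1310 CPM in the same order. Leukocyte markers went the other way, with 457 to 702, 4610 to 8130 and 5200 to 7800 CPM over 9 genes, as did the 10 neutrophil markers, with 10.6 to 17.2, 508 to 832 and 3450 to 10000 CPM. Mitochondrial genes took 22.8 to 28.9% of reads in Sham libraries, and 8.52 to 11.5% (MI) or 7.14 to 14.2% (iCarP+/Light+) after ligation. The 10 mural (vessel wall) markers ran from 3050 to 3560, 3140 to 3620 and 2240 to 3160 CPM in the same order of groups. Between Sham and ligated rats most of these marker sums changed, as did many member genes. Between MI and iCarP+/Light+ rats the neutrophil sum rose further, while 24 of the 25 tested members were not called. The part of these cells in each result was not tested. In bulk tissue, fewer cells of a type and less RNA per cell cannot be told apart.

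Promoter sequence was taken for 27 of the 40 genes as the 250 bases before a transcript start in RefSeq (build GRCr8), written 5′ to 3′ on the strand of the gene. Of these 27 windows, 6 overlapped the span of their own gene. Windows are shown for Wnt2, the ligand that rose most in CPM, for Sfrp2, the only tested gene of the 40 that edgeR called different between iCarP+/Light+ and MI rats, and for Fzd4, the Frizzled gene with the highest level in Sham rats. None of these 3 windows lies inside its gene. Capitals mark the core of the hypoxia response element (ACGTG or GCGTG, on either strand), whose letters also occur in the E-box CACGTG.
Wnt2 (chr4:47340285-47340534, minus strand): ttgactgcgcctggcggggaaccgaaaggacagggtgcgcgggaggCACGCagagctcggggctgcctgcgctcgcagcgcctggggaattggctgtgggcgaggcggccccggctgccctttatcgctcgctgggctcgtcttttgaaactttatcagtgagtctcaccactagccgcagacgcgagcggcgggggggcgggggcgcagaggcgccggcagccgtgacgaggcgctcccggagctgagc
Sfrp2 (chr2:171387286-171387535, plus strand): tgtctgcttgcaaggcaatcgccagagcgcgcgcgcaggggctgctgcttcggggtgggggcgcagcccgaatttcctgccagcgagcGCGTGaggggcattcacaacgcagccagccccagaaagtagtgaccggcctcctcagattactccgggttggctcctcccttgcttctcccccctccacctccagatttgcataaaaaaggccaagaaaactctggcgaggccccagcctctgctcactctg
Fzd4 (chr1:152692257-152692506, plus strand): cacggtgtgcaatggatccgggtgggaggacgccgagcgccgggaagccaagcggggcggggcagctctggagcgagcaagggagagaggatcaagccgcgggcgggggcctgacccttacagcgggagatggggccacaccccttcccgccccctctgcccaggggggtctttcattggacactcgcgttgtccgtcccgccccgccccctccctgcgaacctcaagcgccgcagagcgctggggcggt
The core began 204 bases before the start in Wnt2 and 162 bases before it in Sfrp2. It was found in 15 of the 27 windows (55.6%), against 37.9% of 27457 windows in the table. The member windows also held a median of 22 CpG dinucleotides against 6 over all windows, and a median GC content of 65.6% against 52%. Letters bound by TCF/LEF factors (CTTTGAT or CTTTGTT, on either strand) stood in 1 window, that of Dkk1, against 8.04% of all windows. A match describes the letters of a window and no more.

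The first comparison asked how the cell-surface Wnt genes differed between infarcted and sham-operated tissue. One day after ligation, 14 of the 25 tested genes (56%) were lower in MI than in Sham rats and 5 (20%) were higher, by edgeR at an adjusted p under 0.05. Over all tested genes, 33.6% were lower and 30.2% were higher. The lower genes included all 3 tested secreted Frizzled-related genes, Wif1, Dkk3 and Dkk4, both Lrp co-receptors, 4 Frizzled genes and the ligands Wnt5b and Wnt11. The higher genes were the ligands Wnt2, Wnt4 and Wnt6 and the receptors Fzd2 and Fzd3. Over the 25 tested genes the log2 fold change had a median of -1.09, against -0.06 over all tested genes. Under scaling by total counts alone, which moved the median of all genes to 0.52, 10 genes were lower and 5 higher, with smaller decreases for Dkk3 (-2.12), Fzd4 (-0.95), Fzd6 (-0.88), Lrp5 (-0.77) and Fzd1 (-0.50). The same setting raised the share of higher genes among all called genes from 47.3% to 73.5%.

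**Figure D1:**
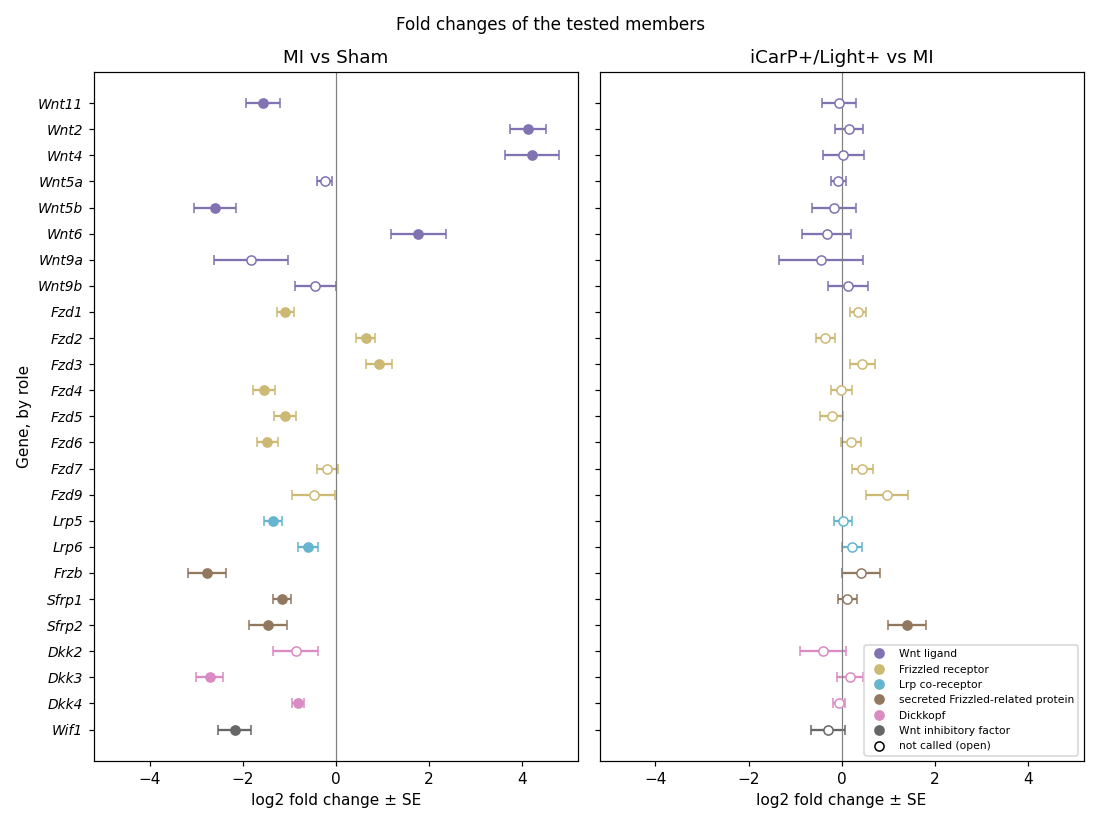
Log2 fold change (horizontal axis, with its standard error) of the 25 tested genes in MI vs Sham (left) and iCarP+/Light+ vs MI (right), coloured by role, where filled points passed an adjusted p of 0.05. Wnt2 and Wnt4 lie above 4 on the left, Frzb, Dkk3 and Wnt5b below -2.6, and on the right only Sfrp2 is filled.

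Among the ligands, Wnt2 and Wnt4 changed from near the counting floor to levels among the higher ligands. In Sham rats Wnt2 measured 0.578, 0.546, 0.0759 and 0.221 CPM, in MI rats 4.88, 8.36, 4.92 and 7.61 CPM, and in iCarP+/Light+ rats 7.26, 7.49, 6.91 and 7.03 CPM. Values are in the order of rats 1, 2, 3 and 5 for Sham, 1, 3, 4 and 5 for MI and 1, 2, 4 and 5 for iCarP+/Light+, here and throughout. Wnt2, a ligand known from vessel and early heart development, was low in all 4 Sham rats and high in all 8 ligated rats. Its log2 fold change in MI vs Sham was 4.13 (SE 0.39, adjusted p = 1.48e-06). The Wnt4 level was 0.217, 0.546, 0 and 0.295 CPM in Sham, 7.04, 2.27, 6.99 and 4.2 CPM in MI and 4.57, 4.29, 4.61 and 7.6 CPM in iCarP+/Light+ rats. Sham rats held only 3, 8, 0 and 4 reads of Wnt4, a ligand known from kidney and gonad development, so the Sham level is imprecise, and the groups were apart with every ligated rat above every Sham rat. The log2 fold change was 4.21 (SE 0.57, adjusted p = 3.04e-05), and 4.84 without Sham rat 2. Levels of Wnt6 were 0.289, 0.614, 0.152 and 0.0737 CPM in Sham, 0.958, 0.485, 1.06 and 1.49 CPM in MI and 1.38, 0.423, 0.474 and 0.914 CPM in iCarP+/Light+ rats. Wnt6 was higher in MI by 1.77 on the log2 scale (SE 0.60, adjusted p = 0.0195), but the MI rat with the lowest level lay below the Sham rat with the highest. This call was lost without MI rat 5 (1.53, adjusted p = 0.0563), without Sham rat 3 (1.58, 0.0555) and without Sham rat 5 (1.47, 0.0541), and the value was 2.48 without Sham rat 2 (adjusted p = 0.006). In the genome (rn6), Wnt2 lies on chromosome 4 from 45292437 to 45332420 on the minus strand, Wnt4 on chromosome 5 from 155649217 to 155672579 on the plus strand, and Wnt6 on chromosome 9 from 82033543 to 82047166 on the plus strand, 6.4 kb from Wnt10a. Wnt10a had at most 2 reads in any rat.

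Wnt11 and Wnt5b, ligands best known for signals outside the beta-catenin branch, went down. Wnt11 was at 11, 10.4, 10.2 and 11.7 CPM in Sham rats, 1.53, 6.31, 3.41 and 3.35 CPM in MI rats and 3.82, 5.44, 2.71 and 2.04 CPM in iCarP+/Light+ rats. All Sham rats lay above all ligated rats, and the log2 fold change in MI vs Sham was -1.57 (SE 0.37, adjusted p = 0.00225). In Sham rats Wnt5b measured 5.35, 3.28, 5.16 and 5.16 CPM, in MI rats 0.958, 0.593, 0.783 and 0.745 CPM, and in iCarP+/Light+ rats 1.06, 0.846, 0.745 and 0.0703 CPM. Here too the Sham rats stood apart from both other groups, with a log2 fold change of -2.61 (SE 0.45, adjusted p = 0.000228). Wnt5a, the close relative of Wnt5b, did not pass the test. The Wnt5a level was 24.6, 19.7, 20.3 and 20.8 CPM in Sham, 15.5, 23.5, 13.6 and 19.9 CPM in MI and 19.3, 16.1, 16.5 and 17 CPM in iCarP+/Light+ rats. Of the MI rats, 2 lay below every Sham rat and 2 within the Sham range. Its log2 fold change was -0.24 (SE 0.16, adjusted p = 0.216) and turned to 0.35 under total counts alone, and without MI rat 3 it was -0.38 and passed (adjusted p = 0.0474). Levels of Wnt9a were 1.81, 0.956, 0.759 and 1.18 CPM in Sham, 0.239, 0.324, 0 and 0.745 CPM in MI and 0.0626, 0.725, 0.0677 and 0.0703 CPM in iCarP+/Light+ rats. Wnt9a is listed with a length of only 609 bases and reached a log2 fold change of -1.82 (SE 0.79, adjusted p = 0.0599), although no MI rat reached the lowest Sham rat. It passed without MI rat 5 (-2.57, adjusted p = 0.0249) and without iCarP+/Light+ rat 2 (-1.81, 0.0288), and by limma-voom with all rats (-2.43, 0.0167). Wnt9b overlapped widely, with 1.16 to 3.75 CPM among Sham rats, 0.951 to 2.91 CPM among MI rats and 1.27 to 3.02 CPM among iCarP+/Light+ rats.

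Set beside each other per kilobase of gene length after TMM scaling, the 19 ligands had a similar summed level in the 3 groups but a different makeup. The sum was 13.7 ± 1.57 CPM per kb for Sham rats, 12.8 ± 2.82 for MI rats and 12.9 ± 1.06 for iCarP+/Light+ rats (SD, n = 4 each). In Sham rats, Wnt5a made up 31.2 ± 1.89% of it, Wnt11 30.7 ± 2.45%, Wnt9a 13.7 ± 3.7% and Wnt5b 13.4 ± 2.79%. In MI rats, Wnt2 led with 37.4 ± 2.38%, followed by Wnt5a with 28.2 ± 1.71%, Wnt11 with 10.7 ± 4.38% and Wnt4 with 7.63 ± 4.67%. The iCarP+/Light+ rats had Wnt2 at 42 ± 1.91% and Wnt5a at 26.9 ± 2.9%. Wnt5a thus ranked first or second among the ligands per length in all 3 groups, while Wnt2 moved from 25th of the 40 genes in Sham to 6th in MI. Neighbouring levels in this order mostly overlapped between rats: in MI, Wnt2 could not be separated from Dkk4 above it or Lrp6 below it. The sums rest on the listed gene lengths and on the scaling, and are given as a description without a test. TMM factors were 0.784 to 0.856 for Sham, 1.15 to 1.26 for MI and 0.96 to 1.05 for iCarP+/Light+ rats. Without these factors, Sham sums would be lower and MI sums higher, for the ligands as for the receptors and inhibitors below. The likeness of the ligand sums is therefore stated for TMM scaling only.

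**Figure D2:**
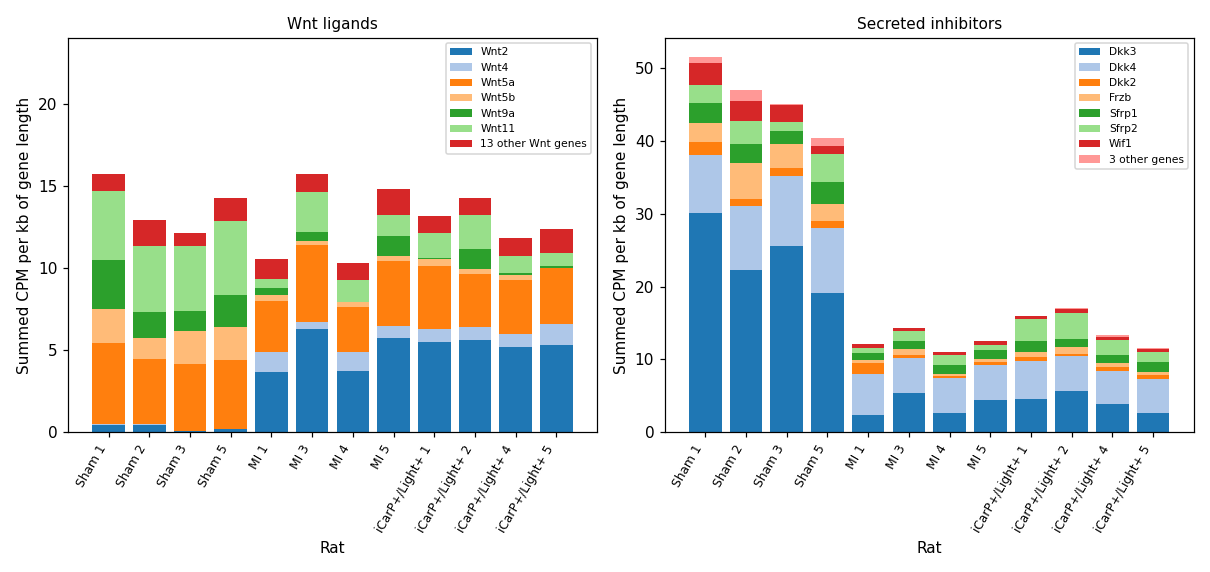
Summed level per kilobase of gene length (vertical axis, CPM per kb) of the 19 Wnt ligands (left) and the 10 secreted inhibitors (right), 1 bar for each rat, with genes stacked by colour. With TMM scaling, ligand bars have like heights of 10.3 to 15.7 but change from Wnt5a and Wnt11 in Sham to Wnt2 and Wnt5a in ligated rats. Inhibitor bars drop from 40.4 to 51.6 in Sham to 17 or less.

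Of 8 tested Frizzled genes, 4 fell and 2 rose in MI vs Sham, where 33.6% of all tested genes were lower and 30.2% higher. Fzd4 was at 103, 135, 136 and 116 CPM in Sham rats, 43.3, 38.6, 24.7 and 61.1 CPM in MI rats and 50.7, 45.4, 36.6 and 34 CPM in iCarP+/Light+ rats. Fzd4, a receptor known from blood vessel growth and also bound by norrin, was lower in every ligated rat than in any Sham rat, with a log2 fold change of -1.55 (SE 0.23, adjusted p = 6.04e-05). In Sham rats Fzd6 measured 45.5, 45.9, 47.6 and 42.2 CPM, in MI rats 13.8, 18.8, 13 and 19.8 CPM, and in iCarP+/Light+ rats 19.7, 19.9, 24.5 and 10.6 CPM. Fzd6, known from planar cell polarity, showed the same separation of groups and a log2 fold change of -1.47 (SE 0.22, adjusted p = 5.96e-05). The Fzd1 level was 62.2, 40.7, 55.6 and 52.2 CPM in Sham, 19.1, 32.9, 22.3 and 24.8 CPM in MI and 37.8, 30.9, 31.6 and 26.2 CPM in iCarP+/Light+ rats. For Fzd1 the groups were again apart, at -1.09 (SE 0.18, adjusted p = 0.000152). Levels of Fzd5 were 10.1, 8.12, 9.26 and 7.89 CPM in Sham, 3.73, 3.72, 3.36 and 5.8 CPM in MI and 2.82, 5.26, 2.85 and 3.38 CPM in iCarP+/Light+ rats. Fzd5 separated in the same way, at -1.09 (SE 0.24, adjusted p = 0.00152), but under total counts alone it was -0.50 and missed the threshold (adjusted p = 0.0844).

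Fzd2 and Fzd3 moved upward. Fzd2 was at 12.1, 12, 10.7 and 10 CPM in Sham rats, 15.6, 19.2, 16.2 and 19.1 CPM in MI rats and 12.1, 15, 19.1 and 8.72 CPM in iCarP+/Light+ rats. All MI rats lay above all Sham rats for Fzd2 (log2 fold change 0.64, SE 0.20, adjusted p = 0.013), whereas the iCarP+/Light+ rats spread from below the Sham range into the MI range. In Sham rats Fzd3 measured 1.16, 1.23, 1.21 and 0.737 CPM, in MI rats 1.68, 2.1, 2.24 and 2.23 CPM, and in iCarP+/Light+ rats 3.63, 2.36, 1.96 and 3.31 CPM. Fzd3, known from axon guidance and planar polarity, was higher in every ligated rat than in any Sham rat, with a log2 fold change of 0.92 in MI vs Sham (SE 0.28, adjusted p = 0.0119). Fzd7 and Fzd9 did not pass. Fzd7 ran from 5.28 to 7.03 CPM among Sham rats, 3.52 to 6.89 CPM among MI rats and 5.82 to 7.86 CPM among iCarP+/Light+ rats. Fzd9 stayed between 0.192 and 1.34 CPM in all rats. Of the summed Frizzled level per kb, Fzd4 held 33.5 ± 3.96% in Sham rats, 20.3 ± 4.9% in MI rats and 20 ± 2.95% in iCarP+/Light+ rats (SD, n = 4). The share of Fzd2 was 11 ± 0.966%, 31.3 ± 2.81% and 23.2 ± 4.92%. Fzd4 thus had the highest mean share in Sham and Fzd2 in MI rats, whereas in iCarP+/Light+ rats Fzd1 (23.6 ± 2.63%) and Fzd2 overlapped. The levels of Fzd2 (8.17 to 10 CPM per kb) and Fzd4 (3.61 to 8.92 CPM per kb) overlapped between MI rats. The summed Frizzled level was 53.5 ± 2.49 CPM per kb for Sham rats, 29.6 ± 4.97 for MI rats and 30.6 ± 4.5 for iCarP+/Light+ rats.

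The co-receptors Lrp5 and Lrp6 are required for the beta-catenin branch. The Lrp5 level was 161, 175, 149 and 163 CPM in Sham, 52.3, 78.8, 44.4 and 78.5 CPM in MI and 70.9, 78.1, 62.7 and 46.3 CPM in iCarP+/Light+ rats. Lrp5 had the highest mean level per length of all 40 genes in every group, and its Sham rats were all well above the ligated rats (log2 fold change -1.35, SE 0.20, adjusted p = 5.78e-05). Levels of Lrp6 were 37, 46, 44.2 and 39 CPM in Sham, 29.5, 26.3, 14.5 and 38.8 CPM in MI and 28.5, 35, 31.7 and 32.2 CPM in iCarP+/Light+ rats. Lrp6 was lower in MI by a smaller amount (-0.61, SE 0.22, adjusted p = 0.0278), with 1 MI rat inside the Sham range. The Lrp6 call was lost without MI rat 3 (-0.58, adjusted p = 0.0608), iCarP+/Light+ rat 5 (-0.50, 0.0694), Sham rat 2 (-0.55, 0.0663) or Sham rat 3 (-0.57, 0.062). It was also lost when only the compared groups were fitted (-0.46, adjusted p = 0.134), with the replicate block (-0.51, 0.0813) and under total counts alone (-0.01, 0.966).

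Of the 7 secreted inhibitors tested, 6 were lower in MI than in Sham rats by edgeR and DESeq2 and all 7 by limma-voom, against 33.6% of all tested genes lower by edgeR. None was higher by these tools, or by edgeR at an unadjusted p under 0.05. Frzb was at 7.37, 13.5, 8.88 and 6.41 CPM in Sham rats, 1.34, 2.27, 0.559 and 1.12 CPM in MI rats and 1.69, 2.84, 1.35 and 1.2 CPM in iCarP+/Light+ rats. Frzb, a secreted Frizzled-related protein known from cartilage and bone, was higher in each Sham rat than in any ligated rat, with a log2 fold change of -2.77 (SE 0.41, adjusted p = 5.94e-05). In Sham rats Sfrp1 measured 10.8, 10.3, 6.91 and 11.9 CPM, in MI rats 3.93, 4.21, 4.75 and 4.95 CPM, and in iCarP+/Light+ rats 5.89, 3.99, 4.47 and 5.13 CPM. Sfrp1 also separated completely, at -1.16 (SE 0.20, adjusted p = 0.000206). The Sfrp2 level was 5.78, 7.17, 2.96 and 8.99 CPM in Sham, 1.34, 3.13, 3.13 and 1.44 CPM in MI and 7.2, 8.46, 4.74 and 3.38 CPM in iCarP+/Light+ rats. Sfrp2, a product of fibroblasts and stromal cells, was lower in MI than in Sham rats (log2 fold change -1.46, SE 0.41, adjusted p = 0.00685), although Sham rat 3 lay inside the MI range. The Sfrp2 call was lost under total counts alone (-0.90, adjusted p = 0.0625).

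Levels of Dkk3 were 150, 112, 128 and 95.9 CPM in Sham, 11.9, 27, 13.1 and 22.4 CPM in MI and 22.9, 28.4, 19.4 and 13.2 CPM in iCarP+/Light+ rats. Dkk3, the inhibitor with the highest level in Sham rats, is a divergent Dickkopf protein whose action on the Lrp co-receptors is unlike that of its relatives. Each Sham rat was well above each ligated rat, and the log2 fold change was -2.71 (SE 0.29, adjusted p = 3.93e-06). Dkk4 was at 12.1, 13, 14.4 and 13.3 CPM in Sham rats, 8.38, 7.23, 7.27 and 7.02 CPM in MI rats and 7.7, 7.19, 6.77 and 6.96 CPM in iCarP+/Light+ rats. Dkk4 showed a smaller but tight separation, at -0.82 (SE 0.13, adjusted p = 9.17e-05), which shrank to -0.24 under total counts alone (adjusted p = 0.137). In Sham rats Dkk2 measured 5.85, 3.48, 3.87 and 3.46 CPM, in MI rats 5.08, 1.4, 1.01 and 1.6 CPM, and in iCarP+/Light+ rats 2.19, 0.665, 2.1 and 1.97 CPM. In MI vs Sham, Dkk2 did not pass (-0.87, SE 0.49, adjusted p = 0.136), with MI rat 1 within the Sham range and the other 3 MI rats below it. Without MI rat 1 it was -1.63 (adjusted p = 0.00396), and with all rats it passed by limma-voom (-1.09, 0.0464) and with the replicate block (-1.19, 0.0447). The Wif1 level was 6.79, 6.28, 5.16 and 2.21 CPM in Sham, 1.29, 1.02, 0.951 and 1.22 CPM in MI and 0.751, 1.39, 0.745 and 0.774 CPM in iCarP+/Light+ rats. For Wif1, which binds Wnt proteins directly, all Sham rats lay above all ligated rats, at -2.18 (SE 0.35, adjusted p = 0.00013). Summed per kb, the 10 inhibitors stood at 46 ± 4.65 CPM per kb for Sham rats, 12.5 ± 1.4 for MI rats and 14.5 ± 2.52 for iCarP+/Light+ rats (SD, n = 4), a description without a test. Much of the drop in this sum was Dkk3 alone, with means of 24.3, 3.71 and 4.19 CPM per kb in the same order. Dkk3 held 70.4 ± 3.92% of the summed Dickkopf level per kb in Sham and 39 ± 11.7% in MI rats, where Dkk4 led with 54.2 ± 8.24%.

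**Figure D3:**
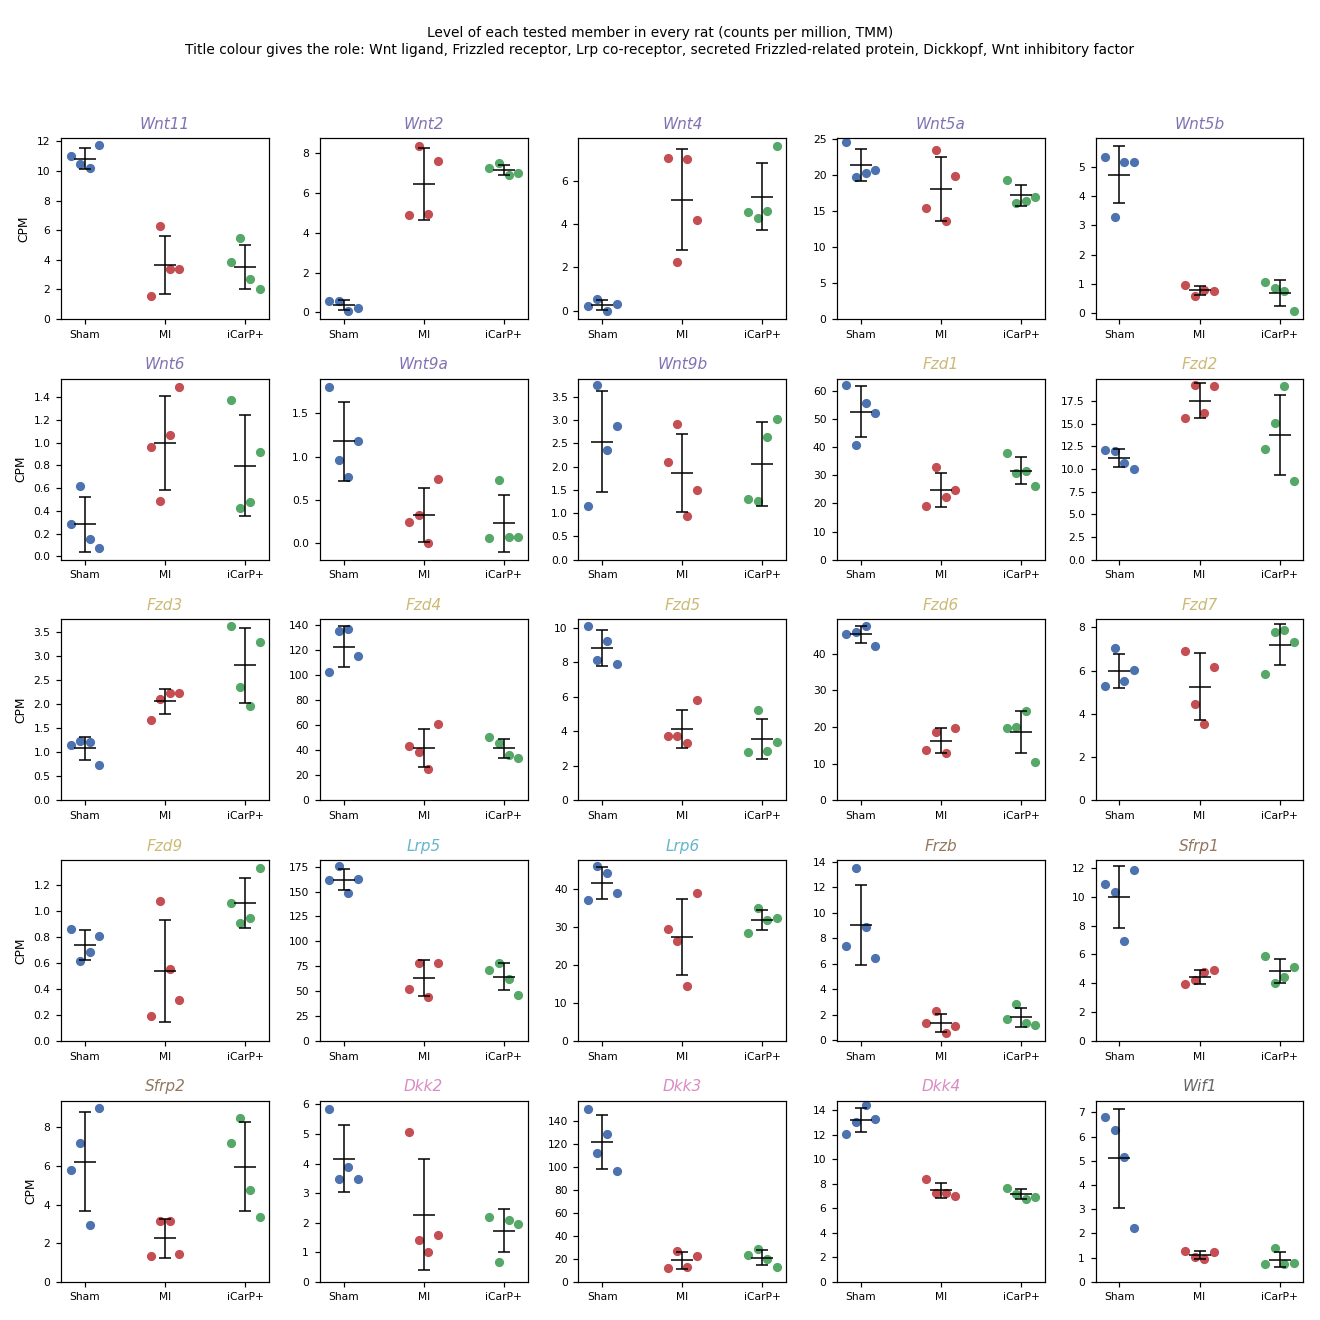
Level (vertical axes, CPM) of the 25 tested genes in each of the 12 rats, with 1 panel for each gene, 1 point for each rat, and the mean and SD in black. The Sham points of Dkk3, Frzb, Wnt5b and Fzd4 stand above all others, those of Wnt2 and Wnt4 below all others, and the iCarP+/Light+ points of Sfrp2 (3.38 to 8.46 CPM) lie above the MI points (1.34 to 3.13 CPM).

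The second comparison asked whether treatment with alga, patch and light was accompanied by a difference from untreated infarction. Of the 25 tested genes, 1 (4%) was raised in iCarP+/Light+ over MI rats, against 11.6% of all tested genes, and 0 were lower, against 2.01%. Among all genes called here, 85.2% were higher, a share that total counts alone changed to 30.7% and DESeq2 to 70.8%. For the lower direction, edgeR at an unadjusted p under 0.05 also gave 0 genes, as did DESeq2 and limma-voom at their adjusted thresholds, and for the higher direction an unadjusted p under 0.05 gave 2. The 1 gene was Sfrp2. Its iCarP+/Light+ rats, at 7.2, 8.46, 4.74 and 3.38 CPM, all lay above the MI rats, which reached 3.13 CPM at most, and they covered much of the Sham range. The means were 5.94 ± 2.31 CPM for iCarP+/Light+, 2.26 ± 1.01 for MI and 6.23 ± 2.54 for Sham rats (SD, n = 4), and the log2 fold change from MI was 1.40 (SE 0.41, adjusted p = 0.0372). This call was close to the threshold. It was lost with total counts alone (1.15, adjusted p = 0.0533), when only the compared groups were fitted (1.36, 0.0542) and with the replicate block (1.22, 0.211). It was also lost without MI rat 1 (1.21, adjusted p = 0.104), MI rat 5 (1.23, 0.0948), iCarP+/Light+ rat 1 (1.29, 0.0706), iCarP+/Light+ rat 2 (1.18, 0.117) or Sham rat 1 (1.40, 0.0517). Of 10 fibroblast markers, edgeR called 1 higher (Dcn, log2 fold change 0.73, adjusted p = 0.0374) in the same contrast, 8 of the 10 lay below 0 and their median was -0.32, and the list summed to 2830 to 3260 CPM among MI rats and 1450 to 3140 CPM among iCarP+/Light+ rats. Of 5 erythroid markers, 2 were higher (Hbb, 1.60, adjusted p = 0.0212, and Alas2, 1.42, 0.0204), and this list summed to 507 to 2140 CPM (MI) and 1840 to 5230 CPM (iCarP+/Light+). All 9 tested neutrophil markers were higher, with sums of 508 to 832 CPM (MI) and 3450 to 10000 CPM (iCarP+/Light+). The part of these cells in the Sfrp2 result was not tested.

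For the other 24 genes, log2 fold changes between iCarP+/Light+ and MI rats ran from -0.45 to 0.98, 13 of them above 0, with adjusted p from 0.188 to 0.991. Fzd9 had the largest of these values, with rats at 1.06, 0.906, 0.948 and 1.34 CPM in iCarP+/Light+ and 0.192, 1.08, 0.559 and 0.319 CPM in MI (0.98, SE 0.45, adjusted p = 0.188). Without MI rat 3 it was 1.57 and passed (adjusted p = 0.0314). Wnt2 differed by 0.16 (SE 0.30), Wnt4 by 0.04 (SE 0.44), Dkk3 by 0.18 (SE 0.28), Frzb by 0.43 (SE 0.41) and Fzd4 by -0.01 (SE 0.22). Under total counts alone, Wnt2 (-0.12), Wnt4 (-0.23) and Dkk3 (-0.10) turned below 0. A p that misses the threshold does not show that the groups were alike, and standard errors of 0.128 to 0.903 set what could be detected. The median over the 25 genes was 0.04, against 0.01 over all tested genes.

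The third comparison set iCarP+/Light+ rats against Sham rats and shares the Sham rats with the first and the iCarP+/Light+ rats with the second. By edgeR, 3 genes (12%) were higher, against 33.5% of all tested genes, and 14 (56%) were lower, against 33%. Wnt2 (4.29, SE 0.39), Wnt4 (4.25, SE 0.58) and Fzd3 (1.37, SE 0.28) were the higher genes on the log2 scale, with Wnt4 at 4.87 without Sham rat 2. The lower genes comprised Dkk3 (-2.53, SE 0.29), Wnt5b (-2.77, SE 0.46), Wif1 (-2.47, SE 0.36), Frzb (-2.34, SE 0.40), Wnt11, Fzd4, Fzd5, Fzd6, Fzd1, Lrp5, Sfrp1 and Dkk4, and also Dkk2 and Wnt9a, which by edgeR had missed the threshold in MI vs Sham. Fzd2, Lrp6, Sfrp2 and Wnt6 passed by edgeR in MI vs Sham and not here, which is no test of a difference between the groups. Sfrp2 stood at -0.06 (SE 0.39, adjusted p = 0.897) in iCarP+/Light+ vs Sham and Wnt6 at 1.45 (SE 0.61, adjusted p = 0.0511). Wnt6 did pass by DESeq2 (1.504, adjusted p = 0.0423), with DESeq2 size factors in edgeR (1.47, 0.0483) and with total counts alone (1.75, 0.0239). Lrp6 (-0.37, adjusted p = 0.00763) and Wnt5a (-0.30, 0.0475) passed when only the compared groups were fitted. Dkk2 was at -1.27 (SE 0.50, adjusted p = 0.0386) and lost its call without iCarP+/Light+ rat 2 (-0.99, adjusted p = 0.0973), rat 4 (-1.37, 0.0532) or rat 5 (-1.30, 0.063), without Sham rat 1 (-1.06, 0.106) or rat 3 (-1.30, 0.0578), and with total counts alone (-0.95, 0.113). Fzd1 also lost its call with total counts alone (-0.41, adjusted p = 0.062). Wnt9a was at -2.26 (SE 0.84, adjusted p = 0.0299) and lost it without iCarP+/Light+ rat 1 (-1.95, adjusted p = 0.0769), rat 4 (-1.97, 0.0785) or rat 5 (-1.97, 0.0776), without Sham rat 1 (-1.98, 0.0808) or rat 5 (-2.27, 0.051), with total counts alone (-1.97, 0.0534) and with the replicate block (-2.28, 0.0561). Without iCarP+/Light+ rat 2 it was -3.98 (adjusted p = 0.00263). Some genes gained a call when 1 rat was left out: Fzd2 without iCarP+/Light+ rat 5 (0.49, adjusted p = 0.0227), Lrp6 without MI rat 4 (-0.38, 0.0203), and Wnt6 without MI rat 3 (1.46, 0.0479), iCarP+/Light+ rat 2 (1.67, 0.0362), iCarP+/Light+ rat 4 (1.64, 0.0435) or Sham rat 2 (2.16, 0.0134). With total counts alone, 6 of the 25 genes were higher and 11 lower, and the share of higher genes among all called genes went from 50.3% to 64.7%.

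The 15 other genes fell under the filter on low counts and were not tested. Dkk1, Fzd8, Wnt16, Wnt7a and Wnt8a had no read in any of the 12 rats, where 3 counts, the limit a count of 0 allows, correspond to 0.144 to 0.228 CPM per rat. That limit covers counting error only: Cldn5, an endothelial gene, is also listed at 0 in every rat while the other 8 endothelial markers in the table were detected, so a listed 0 need not bound the level. Wnt1, Wnt3, Wnt3a, Wnt8b and Wnt10a had at most 3 reads in a rat, Wnt7b at most 6 and Wnt10b at most 8. Wnt2b, whose span overlaps St7l on the opposite strand, had at most 13 reads and Sfrp4 at most 18. Sfrp5, an inhibitor known from fat tissue, had 21, 34, 2 and 27 reads in Sham rats, 2, 1, 0 and 0 in MI rats and 3, 0, 6 and 2 in iCarP+/Light+ rats, so 3 Sham rats were well above all others and the Sham rat with 2 reads was not. The 8 adipocyte markers summed to 587 to 854 CPM among Sham rats, 159 to 349 CPM among MI rats and 161 to 263 CPM among iCarP+/Light+ rats. Only 2 of these markers passed the filter, and in MI vs Sham 1 of them was called higher and 1 lower. The part of fat cells in the Sfrp5 counts was not tested. Several ligand genes lie close together in rn6: Wnt9b and Wnt3 are 22.7 kb apart, Wnt9a and Wnt3a 21.1 kb, and Wnt10b and Wnt1 10.7 kb. In each of these pairs, 1 or both genes stayed under the filter.

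Other genes of the pathway were counted in 4 lists, with 111 of 129 listed genes tested, each counted once here. Values in parentheses for these genes are log2 fold changes. In MI vs Sham, 20 (18%) were higher, against 30.2% of all tested genes, and 50 (45%) lower, against 33.6%. In iCarP+/Light+ vs MI, 13 (11.7%) were higher and 1 (0.901%) lower, against 11.6% and 2.01% of all tested genes, so the share of higher genes was near that of all genes. Total counts alone changed the first pair to 47 and 22 and the second to 6 and 9. Among 17 tested modulators of Wnt proteins and their receptors, 1 (5.88%) was higher and 11 (64.7%) were lower in MI vs Sham. Gpc4 (-2.10, SE 0.18) and Gpc3 (-1.74, SE 0.66), cell-surface glypicans that bind Wnt proteins, Trabd2b (-1.97, SE 0.28), a protease that inactivates them, and Rnf43 (-1.71, SE 0.36), an enzyme that removes Frizzled receptors, showed the largest changes. Wls, the carrier that takes Wnt proteins out of the cell, was at -1.31 (SE 0.12). In iCarP+/Light+ vs MI, edgeR called 0 modulators (1 at an unadjusted p under 0.05, lower), while DESeq2 and limma-voom each called 1 lower. In the beta-catenin branch, 4 of 43 genes (9.3%) were higher and 17 (39.5%) lower in MI vs Sham, led by Dact1 (-2.09, SE 0.40) and Dact2 (-1.76, SE 0.41), which bind Dishevelled, Apc2 (-2.08, SE 0.22) of the family of beta-catenin destruction proteins, and Frat2 (-1.28, SE 0.34), a binder of the kinase GSK3.

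In iCarP+/Light+ vs MI, 8 of 43 genes of the beta-catenin branch (18.6%) were higher and 0 lower by edgeR, against 11.6% and 2.01% of all tested genes (1 lower at an unadjusted p under 0.05, 1 by DESeq2 and 0 by limma-voom). Frat2 (1.24, SE 0.34), the casein kinases Csnk1g3 (0.97, SE 0.17) and Csnk1g1 (0.88, SE 0.25), and the coactivator Crebbp (0.78, SE 0.15) had the largest values. In the planar and calcium branch, 7 of 34 genes (20.6%) were higher and 15 (44.1%) lower in MI vs Sham, against 30.2% and 33.6% of all tested genes. The lower genes included Celsr1 (-3.07, SE 0.37), a polarity cadherin, Camk2a (-2.82, SE 0.32), a calcium-dependent kinase, Nfatc2 (-2.10, SE 0.31) and Plcb4 (-1.92, SE 0.20). The receptors of this branch Ptk7 (1.76, SE 0.20) and Ror2 (1.49, SE 0.17) were higher in MI, and were chosen for mention after their values were seen. Other receptors of the branch did not rise: Ryk was called lower (-0.32, SE 0.13, adjusted p = 0.0445) and Ror1 was not called (-0.06, SE 0.22, adjusted p = 0.818). By edgeR, only Rock1 (0.38, SE 0.11) of the branch was called between iCarP+/Light+ and MI rats.

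Genes reported as Wnt targets went both ways, with 8 of 23 (34.8%) higher and 10 (43.5%) lower in MI vs Sham, against 30.2% and 33.6% of all tested genes. Ccn4 (4.56, SE 0.57), Myc (3.94, SE 0.12), Cd44 (3.22, SE 0.21) and Fosl1 (2.23, SE 0.14) rose most, and other signals than Wnt are known to act on each of them. Axin2, the feedback target read most widely as a sign of beta-catenin activity, fell by 0.96 on the log2 scale (SE 0.31, adjusted p = 0.0159), from 3.29 CPM in Sham to 1.69 CPM in MI. In iCarP+/Light+ vs Sham it missed the threshold (-0.73, adjusted p = 0.0534). Rnf43 (-1.71) and Apcdd1 (-1.56) of the same list were also lower in MI vs Sham. Nkd1 (0.0077, adjusted p = 0.986), Lef1 (0.60, 0.161) and Tcf7 (-0.29, 0.394) were not called there. In iCarP+/Light+ vs MI, Ppard (1.67, SE 0.16), Vegfa (1.45, SE 0.31), Cd44 (0.80, SE 0.20) and Fosl1 (0.50, SE 0.13) were higher and Twist1 (-0.70, SE 0.18) was lower, while Axin2 was at 0.23 (SE 0.32, adjusted p = 0.709). The count of 13 higher genes over the 4 lists fell to 8 without MI rat 3, 7 without iCarP+/Light+ rat 2 and 4 without iCarP+/Light+ rat 5. The count of 1 lower gene became 0 without MI rat 3 or iCarP+/Light+ rat 2, 4 without MI rat 4 or iCarP+/Light+ rat 1, 2 without iCarP+/Light+ rat 4 and 3 without iCarP+/Light+ rat 5.

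**Figure D4:**
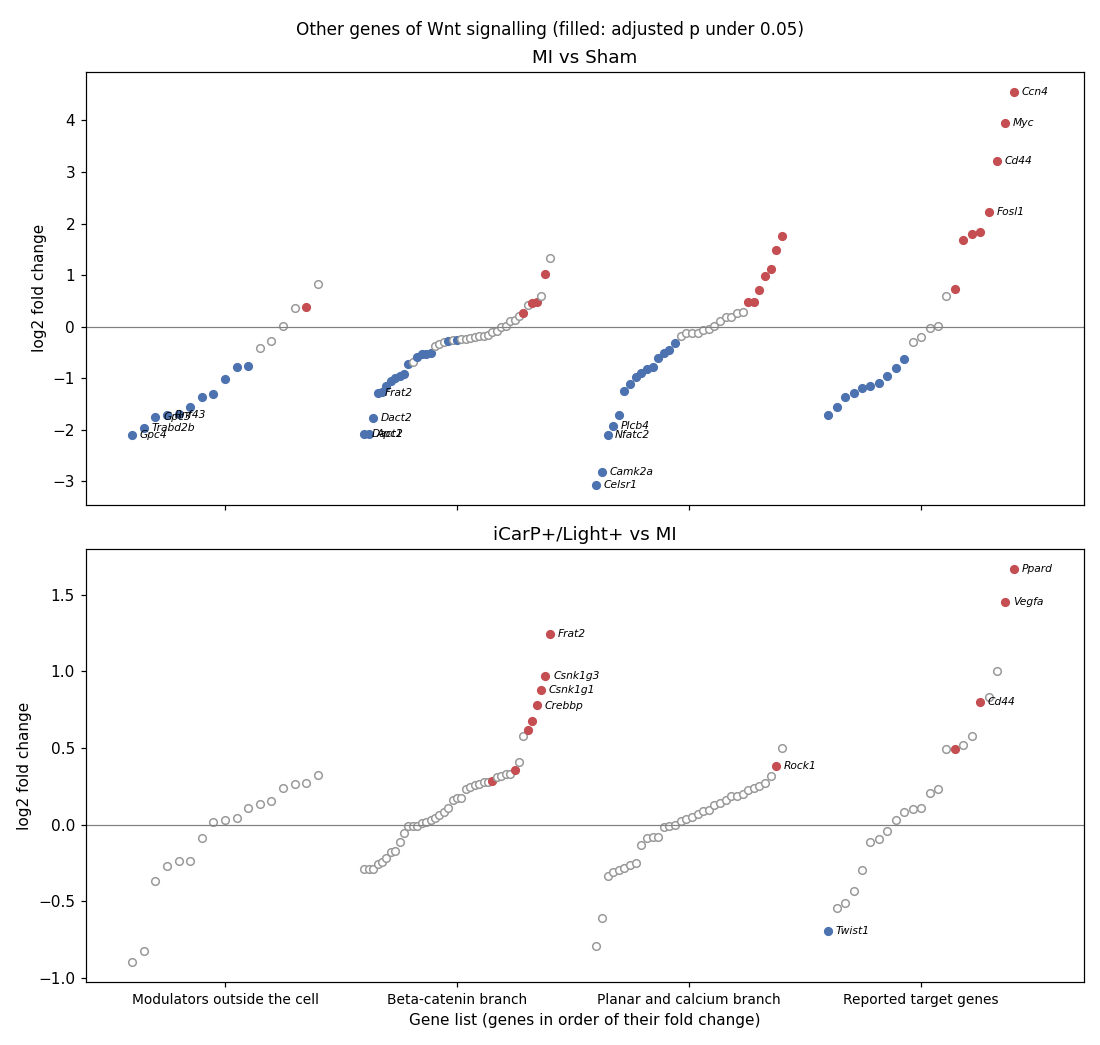
Log2 fold change (vertical axes) of every tested gene in 4 lists of Wnt pathway genes, ordered by value within each list, for MI vs Sham (top) and iCarP+/Light+ vs MI (bottom). Filled points passed an adjusted p of 0.05 (red higher, blue lower), for 20 higher and 50 lower genes at the top and 13 and 1 at the bottom, and a gene held by more than 1 list is drawn in each. The list labelled as modulators outside the cell also holds genes of Wnt release such as Wls.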

How the data were processed

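Members and gene lists were chosen with earlier results of these data known. Total RNA from left ventricular tissue of 12 rats (4 Sham, 4 MI, 4 iCarP+/Light+) had been sequenced, and the authors deposited raw read counts per gene, neither normalized nor filtered, in a table that also gives positions and lengths. The submitters' processing notes name HISAT2, featureCounts and the build rn6; versions, annotation release and strand setting are not given in the sources used here. Where replicates came from is stated only as separate rats, so p-values measure the spread between rats.

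Counts were tested with edgeR 4.0.16 in R 4.3.3: quasi-likelihood fits over all 3 groups, TMM scaling, filterByExpr with a minimum count of 10, and Benjamini-Hochberg adjustment over 15101 genes, with a threshold of 0.05. SE is the absolute log2 fold change divided by the square root of F, and fold changes use a prior count of 0.125. CPM used library sizes multiplied by TMM factors, and the floor was 3 counts. Ranges across rats were compared as listed values. Alternatives were DESeq2 1.42.0, limma-voom (limma 3.58.1), other scalings and filters, only the compared groups, a replicate block and each rat left out. The 18 within-group pairs of rats differed beyond counting noise (chi-square per gene 14.9 to 120). Genes called in any comparison or reaching a mean of 10 CPM are given for each rat. From each pathway list up to 4 called genes with the largest change and a mean of at least 1 CPM are named. Wls, Axin2, Apcdd1, Nkd1, Lef1, Tcf7, Ptk7, Ror2, Ryk and Ror1, and Fosl1 in iCarP+/Light+ vs MI, were added to these after their values were seen.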

Additional observations from a re-analysis of the deposited data

Results flagged for a closer look

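For the 25 tested genes, each group of 4 rats was examined for a rat that lay apart, on a log2 scale of CPM. The gap between the highest or lowest rat and its nearest neighbour was taken as a share of the group's range. This share was set against Dixon's critical value for 4 samples. Of 75 groups, 6 had such a rat, where chance alone marks about 1 in 20 groups (3.75 here). Wif1 (0.942) and Wnt9a (0.973) were set apart by a high iCarP+/Light+ rat 2, with 1.39 and 0.725 CPM, and Dkk2 (0.906) by a low value of 0.665 CPM in the same rat. Wnt4 (0.876) was high in iCarP+/Light+ rat 5, at 7.6 CPM. In Sham rats, Wnt5b (0.926) was low in rat 2, at 3.28 CPM, and Fzd3 (0.878) was low in rat 5, at 0.737 CPM. What set these rats apart was not tested.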

How the results depend on the processing

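Limits common to all results are 4 rats per group, scaling that decides the direction of small changes, and low counts for Wnt6, Wnt9a and Fzd9. Over the 75 values (25 tested genes in 3 comparisons), direction and side of the threshold were kept in 602 cases under other settings, the threshold was passed anew in 10, lost in 13, and the direction reversed in 29. With each rat left out, 841 kept both, 11 passed anew, 22 lost the call and 26 reversed. The reversals concerned 20 values, 0 of them called, and 14 of them in iCarP+/Light+ vs MI. With total counts alone, MI vs Sham gave Fzd7 0.40, Fzd9 0.10, Wnt5a 0.35 and Wnt9b 0.14, and iCarP+/Light+ vs Sham gave Sfrp2 0.24 and Wnt5a 0.0023. In iCarP+/Light+ vs MI the same scaling gave Dkk3 -0.10, Fzd6 -0.068, Lrp5 -0.25, Lrp6 -0.062, Sfrp1 -0.14, Wnt2 -0.12, Wnt4 -0.23 and Wnt9b -0.14. There Lrp5 and Wnt4 also turned to -0.0281 and -0.0091 with DESeq2 size factors, -0.0282 and -0.0086 with DESeq2, -0.0162 and -0.0055 without mitochondrial genes, and -0.0154 and -0.0047 with only the compared groups, and Lrp5 to -0.0382 with at least 10 counts in every sample. The replicate block gave Fzd4 0.0192, Wnt11 0.0168, Wnt4 -0.32 and Wnt5a 0.0259, and limma-voom gave Fzd4 0.0469 and Wnt11 0.064. With 1 rat left out, values crossed 0 in iCarP+/Light+ vs MI for Dkk2 (-0.65 to 0.37), Dkk3 (-0.0069 to 0.41), Fzd4 (-0.19 to 0.23), Lrp5 (-0.12 to 0.14), Wnt11 (-0.35 to 0.35), Wnt4 (-0.27 to 0.23), Wnt5a (-0.19 to 0.075), Wnt5b (-0.46 to 0.12), Wnt9a (-2.17 to 0.31) and Wnt9b (-0.18 to 0.43), and in iCarP+/Light+ vs Sham for Sfrp2 (-0.29 to 0.17). Members higher in MI vs Sham fell from 5 to 2 when at least 10 counts were required in every sample, where 19 members were tested. Members higher in iCarP+/Light+ vs MI went from 1 to 0 with total counts alone, with only the compared groups and with the replicate block, and ran from 0 to 2 with 1 rat left out. Members higher in iCarP+/Light+ vs Sham went from 3 to 6 with total counts alone and 1 where every sample had to hold 10 counts. For the pathway lists in MI vs Sham, total counts alone gave 47 higher (from 20) and 22 lower (from 50). In iCarP+/Light+ vs MI, 13 higher became 6 with total counts alone, 8 with only the compared groups and 4 with the replicate block, and 4 to 16 with 1 rat left out. The 1 lower became 3 with DESeq2 size factors, 9 with total counts alone, 5 with DESeq2, 2 with limma-voom, 3 where every sample had to hold 10 counts, 2 without mitochondrial genes and 0 with the replicate block, and 0 to 4 with 1 rat left out. Total counts alone moved the median log2 fold change of all genes to 0.52, -0.25 and 0.33 in MI vs Sham, iCarP+/Light+ vs MI and iCarP+/Light+ vs Sham, and the share of higher genes among those called to 73.5%, 30.7% and 64.7% from 47.3%, 85.2% and 50.3%; DESeq2 gave 70.8% in iCarP+/Light+ vs MI. Over all genes in iCarP+/Light+ vs MI, 1747 higher and 304 lower became 1204 and 2722 with total counts alone. The labels do not say whether rats with the same replicate number were paired. Over 9 same-numbered pairs, correlations of the deviations from group means ran from -0.194 to 0.0883. Such values over all genes cannot exclude a factor that same-numbered rats shared in some genes. With the replicate block, Sfrp2 in iCarP+/Light+ vs MI was 1.22 (adjusted p = 0.211), Lrp6 in MI vs Sham -0.51 (0.0813), and Wnt9a in iCarP+/Light+ vs Sham -2.28 (0.0561). The causes of these changes were not tested.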
